A study of Mus musculus with 6 samples.

Results

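Described here are 9 mouse genes listed as kinases that nintedanib inhibits besides the VEGF receptors, and the list need not be complete. They include the platelet-derived growth factor (PDGF) receptors Pdgfra and Pdgfrb and the fibroblast growth factor (FGF) receptors Fgfr1, Fgfr2 and Fgfr3. The others are the cytokine receptor Flt3 and the SRC family kinases Lck, Lyn and Src. All were taken by symbol from a table of read counts for 51826 genes, and each of the 9 had exactly 1 row. The table holds 6 libraries of total ovarian RNA from ICR mice, an outbred stock. The OHSS+nintedanib group has 2 libraries from animals of an ovarian hyperstimulation syndrome model that were given nintedanib (bibf1120). The OHSS group has 2 libraries of the same model without the drug, and the COH group has 2 libraries under a name that the labels do not spell out. The labels name no mutant allele or transgene, and the sources used here give no dose, time of sampling, age or hormone schedule. Whether the libraries of a group are separate animals is not stated, so every p-value reflects the scatter among these 6 libraries, which may be no more than technical.

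Receptor tyrosine kinases carry a growth signal across the cell membrane: a ligand pairs the receptors, the kinase domains phosphorylate each other, and adaptor proteins recruited to these sites switch on the RAS-ERK and PI3K-AKT cascades. PDGF receptors are best known from fibroblasts, pericytes and smooth muscle, and in the ovary from stroma and theca. FGF receptors signal in granulosa, theca, stromal and epithelial cells. Nintedanib binds the ATP pocket of these kinases and blocks their activity, while the libraries measure the amount of their transcripts. Kinase activity and phosphorylation were not measured here.

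All 9 genes encode the catalytic loop of the kinase domain, beside the pocket in which the drug sits. No kinase outside the 9 was compared, so the loop is not shown to be particular to them. The 69 coding bases from the HRD codons, which encode the catalytic aspartate, to the DFG codons, which encode the aspartate that holds magnesium, are shown to let the families be compared. They come from the GENCODE M21 annotation of GRCm38, and each stretch lies in 1 coding exon. Capitals mark the 9 bases of each motif. The stretch of Pdgfrb is compared but not printed.
Pdgfra, chr5:75185957-75186025, plus strand: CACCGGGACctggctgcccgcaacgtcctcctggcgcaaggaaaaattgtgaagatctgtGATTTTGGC
Fgfr1, chr8:25572344-25572412, plus strand: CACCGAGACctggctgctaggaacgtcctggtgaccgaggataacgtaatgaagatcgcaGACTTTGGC
Fgfr2, chr7:130172865-130172933, minus strand: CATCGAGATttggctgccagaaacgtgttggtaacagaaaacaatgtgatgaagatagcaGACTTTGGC
Fgfr3, chr5:33734353-33734421, plus strand: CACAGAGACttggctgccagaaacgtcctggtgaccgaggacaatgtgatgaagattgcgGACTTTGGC
Flt3, chr5:147341261-147341329, minus strand: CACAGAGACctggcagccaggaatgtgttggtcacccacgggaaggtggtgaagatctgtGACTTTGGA
Lck, chr4:129551760-129551828, minus strand: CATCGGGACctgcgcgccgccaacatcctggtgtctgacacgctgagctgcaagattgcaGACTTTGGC
Lyn, chr4:3780955-3781023, plus strand: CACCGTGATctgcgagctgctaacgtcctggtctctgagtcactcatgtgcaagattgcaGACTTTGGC
Src, chr2:157469167-157469235, plus strand: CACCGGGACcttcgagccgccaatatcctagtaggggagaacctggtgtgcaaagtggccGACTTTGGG

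All 9 genes, Pdgfrb included, share the same base at 23 of the 69 positions. The closest pairs were Fgfr1 and Fgfr3 with 60 identical positions and Fgfr2 and Fgfr3 with 58. Lck and Lyn matched at 55 positions, Fgfr1 and Fgfr2 at 54, and Flt3 matched Pdgfrb, a receptor of the same class, at 54. Src stood farthest from Pdgfra and from Flt3, with 36 identical positions in each pair, as many as between Pdgfrb and Lck. Over whole transcripts the longest exact run shared by any pair was 36 bases, in Fgfr1 and Flt3, against a mean read length of 143.66 to 144.11 bases.

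The 6 libraries held 28498435 to 34716751 counts each. Markers of ovarian cells were present in all libraries, where the summed level of the theca and luteal markers was 19856 to 26672 CPM and that of the oocyte markers 175 to 328 CPM. CPM, read counts scaled by the effective size of each library, is the unit of all levels unless they are given per length. The granulosa markers summed to 4872 and 5015 CPM in the OHSS+nintedanib libraries, 3169 and 3199 CPM in OHSS and 2935 and 2938 CPM in COH. The myeloid markers summed to 168 and 211 CPM in OHSS+nintedanib, 274 and 337 CPM in OHSS and 380 and 423 CPM in COH. Most of that difference lay in Lyz2, whose values stand beside Lyn; of the 9 myeloid rows (Itgam has 2 gene IDs), 6 had a higher mean in OHSS than in COH, while all 9 were lower in OHSS+nintedanib than in OHSS. The endothelial markers summed to 556 and 583 CPM in OHSS+nintedanib, 425 and 470 CPM in OHSS and 525 and 532 CPM in COH. Of these 3 lists edgeR called no gene in any comparison. At an unadjusted p below 0.05 in OHSS+nintedanib against OHSS (7.42% of all genes), 5 of 8 granulosa and 4 of 7 endothelial markers passed, all higher, and 2 of 9 myeloid rows, both lower, and DESeq2 called 0, 1 and 1. In OHSS+nintedanib against COH (9.7%), 6 of 8 granulosa and 1 of 7 endothelial markers passed, all higher, and 1 of 9 myeloid rows, lower, and DESeq2 called 5, 0 and 1. In OHSS against COH (8.82%), 2 of 8, 2 of 7 and 1 of 9 passed, and DESeq2 called 0, 1 and 0. Over all genes DESeq2 called 1.12, 2.43 and 1.83% in these comparisons, in the order given. The part of these cell types in the levels of the kinases was not tested. In whole-ovary RNA, fewer cells of a type and less RNA per cell cannot be told apart.

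Per kilobase of annotated exon, which allows levels to be compared between genes, Pdgfrb was the most abundant of the kinases with a mean of 38.7 CPM per kilobase over the 6 libraries. Pdgfra followed at 19.5, Src at 13.9, Lyn at 9.34, Fgfr1 at 6.67 and Fgfr2 at 6.56 CPM per kilobase. Lck at 1.75 and Fgfr3 at 1.19 CPM per kilobase were low, and Flt3 was lowest at 0.08 CPM per kilobase. Not all neighbours in this order were apart. Pdgfrb was above Pdgfra in every library, whereas Fgfr2 was above Fgfr1 in OHSS+nintedanib replicate 1 and OHSS replicate 1 and below it in the other 4. Src spanned 7.75 to 17.1 CPM per kilobase, which overlaps the range of 16.6 to 23.4 of Pdgfra and that of 8.54 to 10.6 of Lyn. Lck, at 1.15 to 2.26, overlapped Fgfr3, at 0.77 to 2.02 CPM per kilobase. The length of Fgfr2 is the least certain, since its annotated span runs over many other genes and shares exon bases with Ctbp2.

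**Figure D1:**
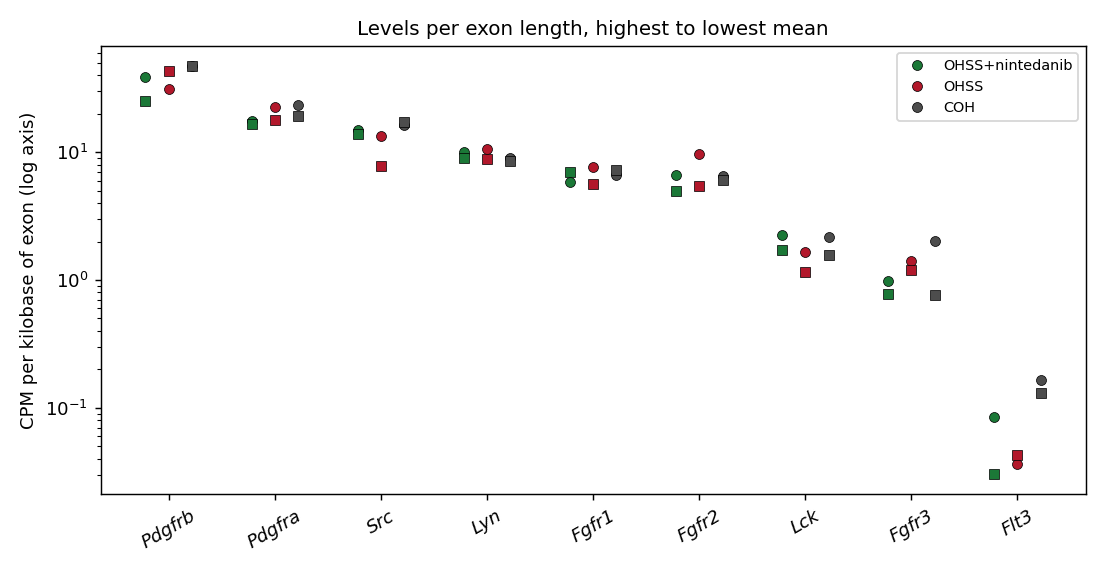
Level of each kinase in CPM per kilobase of exon on a log axis, ordered by the mean over the 6 libraries; circles are replicate 1 and squares replicate 2 of each group. Pdgfrb leads at a mean of 38.7 and Flt3 is lowest at 0.08 CPM per kilobase.

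None of the 9 kinases passed the test in any of the 3 comparisons. The test was edgeR's quasi-likelihood F test over 19027 genes, with a Benjamini-Hochberg adjusted p below 0.05. It called few genes of any kind, namely 1 (0.00526% of those tested) in OHSS+nintedanib against OHSS, 5 (0.0263%) in OHSS+nintedanib against COH and 2 (0.0105%) in OHSS against COH. DESeq2 called 213 genes (1.12%), 436 genes (2.43%) and 348 genes (1.83%) in the same comparisons, and limma voom 1 (0.00526%), 2 (0.0105%) and 0. No kinase was among those calls by any of the 3 tools. At an unadjusted p below 0.05 in edgeR, 0 of 9 kinases passed in OHSS+nintedanib against OHSS, where 7.42% of all genes did, and 0 of 9 in OHSS+nintedanib against COH, where 9.7% did. In OHSS against COH 2 of 9 passed, Flt3 and Src, both lower in OHSS, where 8.82% of all genes passed and 4.24% passed with a lower mean. Flt3 was kept in the test only for its COH level, so its pass cannot be weighed against that share. The 3 comparisons share libraries, so their values are given side by side and are not independent.

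In each comparison more kinases had a lower than a higher mean. In OHSS+nintedanib against OHSS, 3 kinases had a higher mean and 6 a lower one, with a median log2 fold change of -0.06 against 0.01 over all genes tested, of which 48.5% were lower. In OHSS+nintedanib against COH, 2 were higher and 7 lower, with a median of -0.21 against -0.00099 over all genes, of which 50.1% were lower. In OHSS against COH, 2 were higher and 7 lower, with a median of -0.10 against -0.0030 over all genes, of which 50.4% were lower. With 2 libraries a group, ranges often fail to overlap. Between OHSS+nintedanib and OHSS this held for 2 kinases that were higher (19.2% of all genes) and 2 that were lower (16.9%). Between OHSS+nintedanib and COH it held for 1 higher (22.3%) and 4 lower (22.7%), and between OHSS and COH for 0 higher (21.2%) and 3 lower (22.9%). Flt3 is among the lower kinases in both comparisons with COH, and it was kept in the test only for its COH level.

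**Figure D2:**
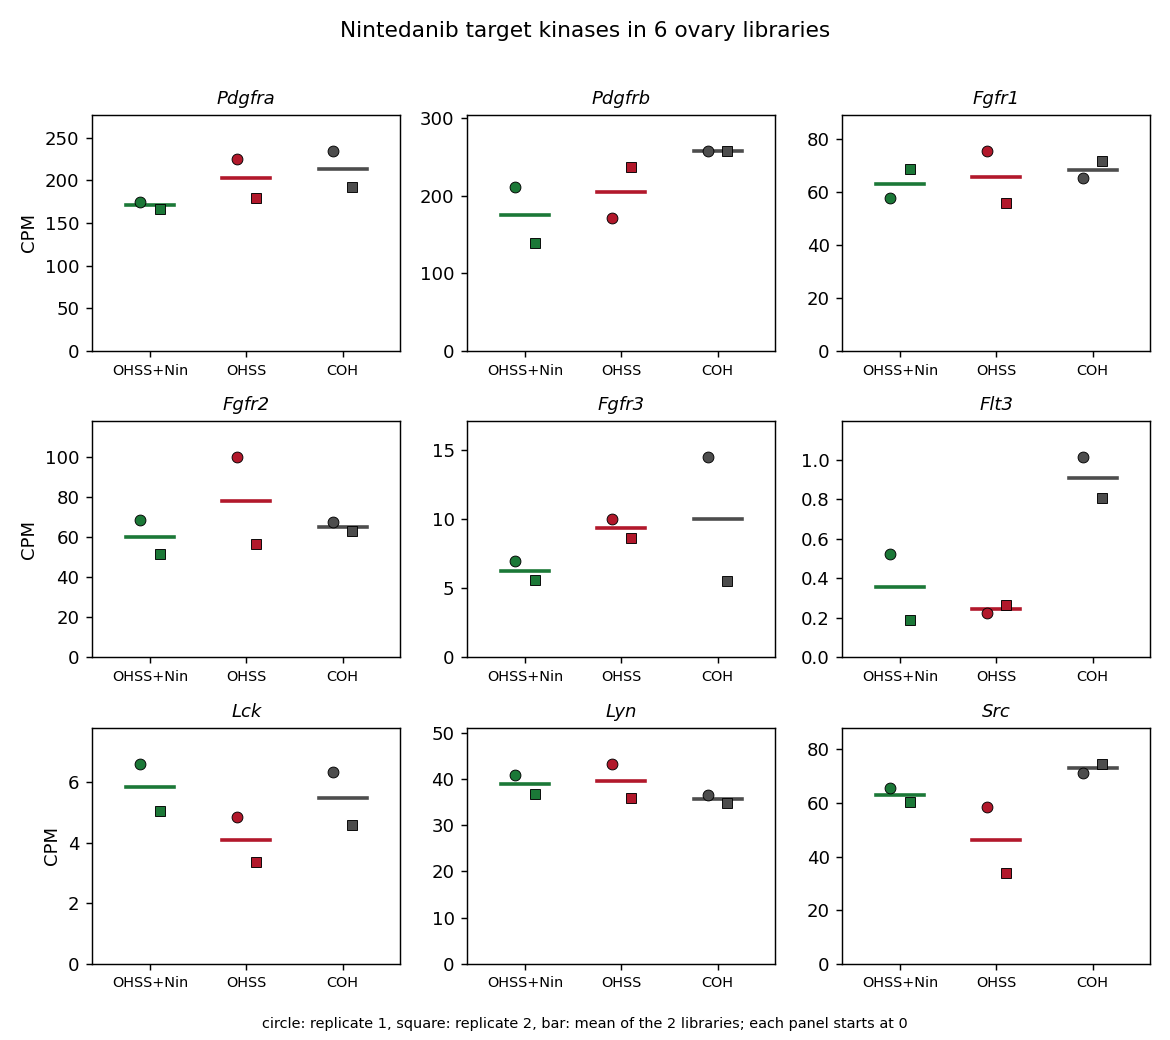
CPM of each kinase in the 6 libraries, with 1 panel a gene and each vertical axis starting at 0; circles are replicate 1, squares replicate 2 and bars the mean of a group. Flt3 is at 0.81 and 1.01 CPM in COH and at 0.52 CPM or below in the other 4 libraries, and Src is lowest in OHSS replicate 2 at 33.9 CPM.

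Pdgfra (ENSMUSG00000029231, chromosome 5) encodes the receptor that binds PDGF-A, PDGF-B and PDGF-C chains and marks stromal fibroblasts. It had 175 and 166 CPM in the OHSS+nintedanib libraries, 225 and 179 CPM in OHSS and 234 and 192 CPM in COH. Both OHSS+nintedanib libraries lay below all 4 others, which overlapped each other. The log2 fold change was -0.24 (SE 0.160, edgeR adjusted p = 0.757) in OHSS+nintedanib against OHSS and -0.32 (SE 0.160, adjusted p = 0.557) against COH. The means of OHSS+nintedanib and OHSS, 171 ± 6.10 and 202 ± 32.4 CPM (SD, n = 2 each), differed by less than the SD of OHSS. In OHSS against COH the log2 fold change was -0.08 (SE 0.159, edgeR adjusted p = 0.914), and it turned to 0.075 without COH replicate 1 and to 0.071 without OHSS replicate 2.

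Pdgfrb (ENSMUSG00000024620, chromosome 18) encodes the receptor for PDGF-B and PDGF-D, through which endothelial cells recruit pericytes to vessel walls. It had 211 and 139 CPM in OHSS+nintedanib, 171 and 237 CPM in OHSS and 257 and 257 CPM in COH. The COH libraries were the highest and lay within 1 CPM of each other, while both other groups were spread widely and overlapped. Against COH the log2 fold change was -0.55 in OHSS+nintedanib (SE 0.248, 95% interval -1.18 to 0.07, edgeR adjusted p = 0.535). In OHSS against COH it was -0.33 (SE 0.248, adjusted p = 0.721). Between OHSS+nintedanib and OHSS it was -0.22 (SE 0.248, adjusted p = 0.857), and it turned to 0.052 without OHSS+nintedanib replicate 2 and to 0.039 without OHSS replicate 2.

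The balance of the PDGF receptors differed more between libraries of 1 group than between groups. Per length, Pdgfrb stood over Pdgfra by a ratio of 2.21 and 1.53 in OHSS+nintedanib, 1.39 and 2.42 in OHSS and 2.01 and 2.45 in COH. The ranges of all 3 groups overlapped. Markers of the cells that carry these receptors were measured beside them. The 8 stromal fibroblast markers summed to 3828 and 4029 CPM in OHSS+nintedanib, 3207 to 4325 CPM in OHSS and 4432 and 4438 CPM in COH. The 11 pericyte and smooth muscle markers summed to 1562 to 1801 CPM in OHSS+nintedanib, 1718 to 1800 CPM in OHSS and 1624 to 1666 CPM in COH, and edgeR called none of either list in any comparison. Of the stromal markers, 4 were higher and 4 lower in OHSS+nintedanib than in OHSS, 7 of 8 were lower in OHSS+nintedanib than in COH and 7 of 8 lower in OHSS than in COH. At an unadjusted p below 0.05 in edgeR, 1, 2 and 3 of them passed in these comparisons, each lower, against 7.42, 9.7 and 8.82% of all genes. DESeq2 called 1 in each, against 1.12, 2.43 and 1.83% of all genes. Of the 11 pericyte and smooth muscle markers 1, 1 and 0 passed unadjusted beside the same shares, and DESeq2 called 0. The part of the stromal markers in the Pdgfra and Pdgfrb levels was not tested.

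The genes of all 4 PDGF ligands were detected and tested. None passed edgeR's adjusted threshold. Unadjusted, 2 of the 4 passed p below 0.05 in OHSS+nintedanib against COH (9.7% of all genes) and the same 2 in OHSS against COH (8.82%), Pdgfd higher and Pdgfa lower both times, and 0 of 4 passed in OHSS+nintedanib against OHSS (7.42%). Pdgfd, the ligand chain that acts mainly on PDGFR-beta, had 31.7 and 22.2 CPM in OHSS+nintedanib, 40.3 and 35.2 CPM in OHSS and 17.4 and 18.8 CPM in COH. The 3 groups did not overlap, with OHSS highest and COH lowest. For OHSS against COH its log2 fold change was 1.06 (SE 0.203, edgeR unadjusted p = 0.00266, adjusted p = 0.442), and DESeq2 called it at an adjusted p of 0.00184. Relative to OHSS, its value in OHSS+nintedanib was -0.49 (SE 0.201, edgeR adjusted p = 0.675), and relative to COH 0.57 (SE 0.202, adjusted p = 0.499).

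Pdgfa, whose product signals through PDGFR-alpha, ran the other way between OHSS and COH. It had 14.9 and 18.5 CPM in OHSS+nintedanib, 13.1 and 15.8 CPM in OHSS and 21.8 and 24.6 CPM in COH. The COH libraries were above all others, and the log2 fold change was -0.47 (SE 0.181, edgeR adjusted p = 0.510) in OHSS+nintedanib against COH and -0.68 (SE 0.181, adjusted p = 0.527) in OHSS against COH. Pdgfb, which endothelial cells secrete to hold pericytes, had 38.9 and 31.3 CPM in OHSS+nintedanib, 36.5 and 34.3 CPM in OHSS and 42.5 and 37.5 CPM in COH. Pdgfc had 32.4 and 54.6 CPM in OHSS+nintedanib, 32.1 and 34.9 CPM in OHSS and 34.7 and 43.7 CPM in COH. For Pdgfb and Pdgfc the OHSS+nintedanib libraries overlapped both other groups. The summed level of the 4 ligands also overlapped between the groups, at 118 to 127 CPM in OHSS+nintedanib, 120 to 122 CPM in OHSS and 116 to 125 CPM in COH.

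**Figure D3:**
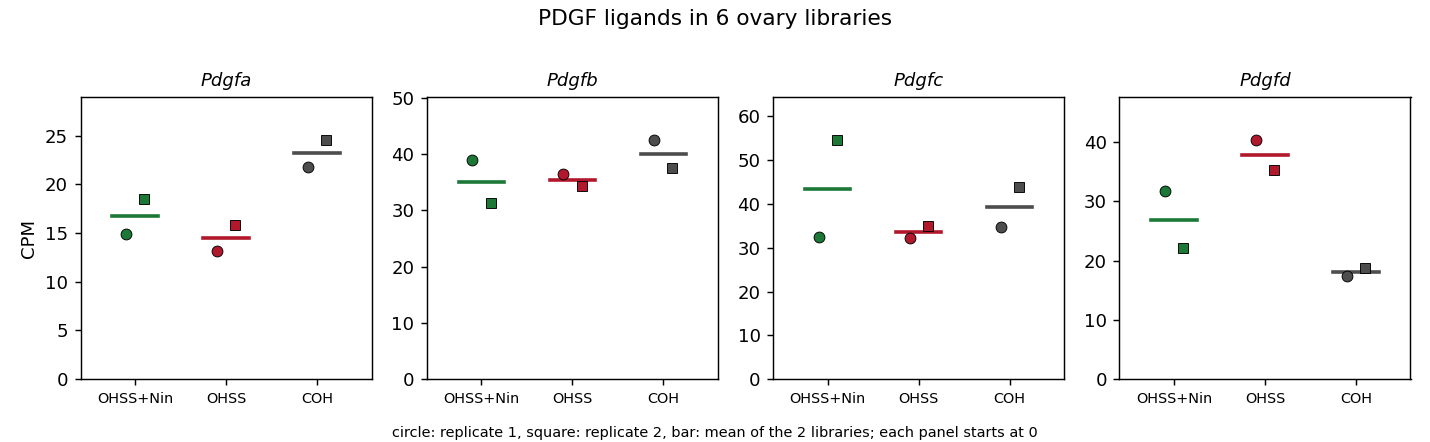
CPM of the 4 PDGF ligand genes in the 6 libraries, with each vertical axis starting at 0; circles are replicate 1, squares replicate 2 and bars the mean of a group. Pdgfd is highest in OHSS at 40.3 and 35.2 CPM and lowest in COH at 17.4 and 18.8 CPM, while Pdgfa is highest in COH.

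Fgfr1 (ENSMUSG00000031565, chromosome 8), a receptor for many FGFs in mesenchymal and vascular cells, was among the steadiest of the kinases. It had 57.7 and 68.9 CPM in OHSS+nintedanib, 75.7 and 56.0 CPM in OHSS and 65.3 and 71.7 CPM in COH. All 3 groups overlapped. The log2 fold changes were -0.06 in OHSS+nintedanib against OHSS, -0.11 in OHSS+nintedanib against COH and -0.06 in OHSS against COH (SE 0.183 each, edgeR adjusted p = 0.957, 0.863 and 0.948). The 95% interval of the first was -0.52 to 0.40, so changes within that range cannot be resolved here. Its direction turned in all 3 comparisons with single libraries left out: to 0.16 without OHSS replicate 1 and 0.063 without OHSS+nintedanib replicate 1 in OHSS+nintedanib against OHSS, to 0.0062 without OHSS+nintedanib replicate 1 in OHSS+nintedanib against COH, and to 0.14 without OHSS replicate 2 and 0.014 without COH replicate 2 in OHSS against COH.

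Fgfr2 (ENSMUSG00000030849, chromosome 7) is known for an epithelial splice form that answers to FGF7 and FGF10 and a mesenchymal one, which a gene count does not separate. It had 68.6 and 51.6 CPM in OHSS+nintedanib, 99.8 and 56.3 CPM in OHSS and 67.3 and 63.1 CPM in COH. One library, OHSS replicate 1, stood above the rest, and the other 5 lay between 51.6 and 68.6 CPM. In OHSS+nintedanib against OHSS the log2 fold change was -0.38 (SE 0.295, edgeR adjusted p = 0.794), and it was 0.08 without OHSS replicate 1. For OHSS against COH it was 0.26 (SE 0.295, adjusted p = 0.823), and it was -0.20 without that library. The value of OHSS+nintedanib against COH was -0.12 (SE 0.295, adjusted p = 0.916), turning to 0.07 without OHSS+nintedanib replicate 2. Of its annotated exon bases, 3.04% are shared with Ctbp2 on the same strand.

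Fgfr3 (ENSMUSG00000054252, chromosome 5), best known as a brake on bone growth, was low in the ovary. It had 6.97 and 5.55 CPM in OHSS+nintedanib, 9.999 and 8.61 CPM in OHSS and 14.4 and 5.5 CPM in COH. Both OHSS+nintedanib libraries were below both OHSS libraries, but the COH libraries held the highest and the lowest value of all. Its log2 fold change was -0.57 (SE 0.463, 95% interval -1.74 to 0.59, edgeR adjusted p = 0.799) in OHSS+nintedanib against OHSS. Against COH, OHSS+nintedanib gave -0.67 (SE 0.463, adjusted p = 0.656), or 0.19 without COH replicate 1. OHSS against COH gave -0.10 (SE 0.459, adjusted p = 0.964), or 0.76 without COH replicate 1. A gene of the opposite strand overlaps 13.94% of the Fgfr3 exons but held 9 counts in all 6 libraries, and whether reads were counted by strand is not stated.

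Among the 4 signalling FGF receptors, with Fgfr4 at a mean of 5.52 CPM per kilobase, no receptor dominated. Fgfr1 made up 28.2 and 41.6% of their summed level per length in OHSS+nintedanib, 31.4 and 32.8% in OHSS and 30.9 and 38.1% in COH. Fgfr2 made up 32.1 and 29.7% in OHSS+nintedanib, 39.6 and 31.5% in OHSS and 30.4 and 32.0% in COH. Fgfr3 contributed 4.70 and 4.61% in OHSS+nintedanib, 5.73 and 6.96% in OHSS and 9.43 and 4.02% in COH. Fgfr4, which is not among the 9 kinases, contributed 35 and 24.1% in OHSS+nintedanib, 23.2 and 28.7% in OHSS and 29.3 and 25.9% in COH, so nearly all of the FGF receptor transcript was shared by 3 genes in every library.

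FGF ligands were scarce. Of 18 genes, 8 passed the filter on low counts, 7 to 9 had no count in a given library, and edgeR called none of them in any comparison. Unadjusted, 1 of the 8 passed p below 0.05 in OHSS+nintedanib against OHSS (Fgf7), 1 in OHSS+nintedanib against COH (Fgf18) and 0 in OHSS against COH. Over all genes 7.42, 9.7 and 8.82% passed in these comparisons. DESeq2 and voom called 0 of the ligands. The summed level was 17.5 to 35.4 CPM in OHSS+nintedanib, 23 to 38.7 CPM in OHSS and 17.1 to 33.9 CPM in COH. Fgf2, the classical fibroblast and endothelial mitogen, had 9.16 and 24.6 CPM in OHSS+nintedanib, 7.07 and 25 CPM in OHSS and 1.07 and 22.3 CPM in COH. Its spread within each group was wider than any difference between group means, and replicate 2 was the higher library in every group. Fgf7, a stromal factor that acts on the epithelial form of Fgfr2, had 3.02 and 3.68 CPM in OHSS+nintedanib, 8.74 and 4.42 CPM in OHSS and 4.64 and 4.38 CPM in COH. Its log2 fold change was -0.97 in OHSS+nintedanib against OHSS (SE 0.374, edgeR adjusted p = 0.657), with the higher OHSS value in replicate 1, the same library that was highest for Fgfr2.

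Genes listed as targets or feedback regulators of FGF and ERK signalling, the Sprouty, Spred, Dusp and Etv genes and Il17rd, were all 11 measured. In edgeR none was called in any comparison, and 1 passed an unadjusted p below 0.05 in each. The share of all genes that passed was 7.42% in OHSS+nintedanib against OHSS, 9.7% in OHSS+nintedanib against COH and 8.82% in OHSS against COH. Spred2 was the gene that passed in OHSS+nintedanib against OHSS (lower) and in OHSS against COH (higher). In OHSS+nintedanib against COH it was Il17rd, lower at 10.7 and 9.19 CPM against 13.7 and 15.2 CPM. DESeq2 called 0, 0 and 1 of the list, against 1.12, 2.43 and 1.83% of all genes. Of the 11, 3 had a higher and 8 a lower mean in OHSS+nintedanib against OHSS, with a median log2 fold change of -0.18. Against COH, 7 were higher in OHSS+nintedanib and 4 lower with a median of 0.16, and 6 were higher in OHSS and 5 lower with a median of 0.16. Spred2, which restrains RAS-ERK signalling, had 38.0 and 35.5 CPM in OHSS+nintedanib, 43.9 and 46.9 CPM in OHSS and 33.8 and 29.8 CPM in COH. The 3 groups did not overlap. Its log2 fold change was -0.30 in OHSS+nintedanib against OHSS (SE 0.121, edgeR adjusted p = 0.672) and 0.52 in OHSS against COH (SE 0.121, edgeR adjusted p = 0.522, DESeq2 adjusted p = 0.0356).

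Dusp6, the phosphatase that removes phosphate from ERK, had 62.0 and 44.3 CPM in OHSS+nintedanib, 94.0 and 62.7 CPM in OHSS and 54.1 and 57.2 CPM in COH. OHSS was above the other groups in both libraries, by less than 1 CPM in the closest pair. That gave a log2 fold change of -0.56 in OHSS+nintedanib against OHSS (SE 0.25, edgeR adjusted p = 0.695) and 0.49 in OHSS against COH (SE 0.25, adjusted p = 0.623). Spred1, the most abundant gene of the list, had log2 fold changes of -0.02 in OHSS+nintedanib against OHSS and -0.03 in OHSS against COH (SE 0.110 each).

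Flt3 (ENSMUSG00000042817, chromosome 5), the receptor that drives the growth of blood progenitors and dendritic cells, was the rarest of the kinases. It had 15 and 6 counts in OHSS+nintedanib, 7 and 8 in OHSS and 36 and 23 in COH. On the CPM scale these are 0.52 and 0.19 CPM in OHSS+nintedanib, 0.23 and 0.26 CPM in OHSS and 0.81 to 1.01 CPM in COH. Both COH libraries lay above the other 4. The gene passed the filter on low counts only through COH, the group in which it was highest. Outside COH, OHSS+nintedanib replicate 1 alone reached the level of the filter, which was not enough. The p-values and intervals of Flt3 against COH are therefore those of a gene kept for its COH level.

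The log2 fold change of Flt3 was -1.88 in OHSS against COH (SE 0.614, 95% interval -3.42 to -0.34, edgeR unadjusted p = 0.0253, adjusted p = 0.542; DESeq2 adjusted p = 0.372). For OHSS+nintedanib against COH it was -1.36 (SE 0.595, edgeR adjusted p = 0.528), and in OHSS+nintedanib against OHSS it was 0.52 (SE 0.637, adjusted p = 0.871), or -0.38 without OHSS+nintedanib replicate 1. Counts exceed the number of read pairs in every library, so 2 counts were taken as 1 pair. In pairs, Flt3 had 10 in OHSS+nintedanib, 8 in OHSS and 30 in COH. The ratio of OHSS to COH was 0.278, with an exact Poisson interval of 0.110 to 0.622 that covers counting error only. That of OHSS+nintedanib to COH was 0.351 (0.153 to 0.738), and that of OHSS+nintedanib to OHSS was 1.26 (0.448 to 3.67).

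Flt3l, the ligand of this receptor, averaged 2.14 CPM per kilobase against 0.08 for Flt3. It had 8.81 and 9.26 CPM in OHSS+nintedanib, 9.90 and 6.34 CPM in OHSS and 8.01 and 7.39 CPM in COH, and its log2 fold change was 0.08 in OHSS against COH (SE 0.256, edgeR adjusted p = 0.950). Of the 7 dendritic cell markers, 6 had a lower mean in OHSS than in COH, 5 a lower mean in OHSS+nintedanib than in COH, and none was at 0 in any library. Their summed level was 48.1 to 57.1 CPM in OHSS+nintedanib, 52.5 to 54.6 CPM in OHSS and 57.4 to 59.9 CPM in COH, most of it from Zbtb46, which endothelial cells are also known to express.

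Single dendritic cell markers went different ways. Clec9a, a receptor of cross-presenting dendritic cells, had 6.59 and 6.20 CPM in OHSS+nintedanib, 3.41 and 3.53 CPM in OHSS and 3.57 and 3.22 CPM in COH (log2 fold change 0.88 against OHSS, SE 0.216, edgeR adjusted p = 0.653). Itgax, the CD11c integrin chain, was lower in OHSS+nintedanib, by a log2 fold change of -1.30 against OHSS (SE 0.301, edgeR adjusted p = 0.638, DESeq2 adjusted p = 0.0424). Xcr1 also went the other way than Clec9a, with 0.59 and 0.56 CPM in OHSS+nintedanib, 0.997 and 0.86 in OHSS and 1.29 and 0.91 in COH. In OHSS+nintedanib against OHSS, 2 of the 7 passed an unadjusted p below 0.05 in edgeR (7.42% of all genes), 1 of them higher. The numbers were the same against COH (9.7%), and 0 passed in OHSS against COH (8.82%). DESeq2 called 1, 2 and 0, against 1.12, 2.43 and 1.83% of all genes. The part of dendritic or myeloid cells in the Flt3 counts was not tested.

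Src (ENSMUSG00000027646, chromosome 2), the founding member of its family and a relay from integrins and growth factor receptors, had its lowest values in OHSS. It had 65.7 and 60.2 CPM in OHSS+nintedanib, 58.3 and 33.9 CPM in OHSS and 71.1 and 74.7 CPM in COH. No group overlapped another, but the OHSS libraries differed from each other by more than any pair of group means except OHSS and COH. Src gave a log2 fold change of -0.66 in OHSS against COH (SE 0.259, 95% interval -1.31 to -0.01, edgeR unadjusted p = 0.0473, adjusted p = 0.565). Leaving out OHSS replicate 1 gave -1.09, and leaving out OHSS replicate 2 gave -0.33. OHSS+nintedanib against OHSS gave 0.45 (SE 0.258, adjusted p = 0.739), with 0.88 and 0.11 when the same libraries were left out. OHSS+nintedanib against COH gave -0.21 (SE 0.257, adjusted p = 0.808).

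Lyn (ENSMUSG00000042228, chromosome 4), which signals from B cell, mast cell and myeloid receptors, varied least of all 9 kinases. It had 40.8 and 36.9 CPM in OHSS+nintedanib, 43.4 and 35.9 CPM in OHSS and 36.6 and 34.8 CPM in COH. Lyn's log2 fold change was -0.03 (SE 0.139, 95% interval -0.38 to 0.32, edgeR adjusted p = 0.970) in OHSS+nintedanib against OHSS and 0.12 (SE 0.139, adjusted p = 0.794) against COH. Relative to OHSS it turned to 0.097 without OHSS replicate 1, to 0.044 without OHSS+nintedanib replicate 2, and to 0.044 with scaling by library size only. OHSS against COH gave 0.15 (SE 0.139, adjusted p = 0.777). Over the same libraries the myeloid marker Lyz2, the lysozyme of macrophages, had 82.2 and 50.7 CPM in OHSS+nintedanib, 167 and 137 CPM in OHSS and 240 and 262 CPM in COH. DESeq2 called Lyz2 lower in OHSS+nintedanib against OHSS (log2 fold change -1.19, DESeq2 adjusted p = 0.00457, edgeR adjusted p = 0.625). Lyz2 had the largest fall of the 9 myeloid rows in each comparison. Of these rows, 6 had a higher mean in OHSS than in COH, and all 9 a lower mean in OHSS+nintedanib than in OHSS. The 4 B cell markers summed to 2.74 and 2.77 CPM in OHSS+nintedanib, 1.86 and 1.88 in OHSS and 2.28 and 3.43 in COH. The part of myeloid or B cells in the Lyn level was not tested. A non-coding RNA on the opposite strand overlaps 6.089% of the Lyn exons and held 64 counts in all.

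Lck (ENSMUSG00000000409, chromosome 4), which starts signalling from the T cell receptor, had 6.63 and 5.05 CPM in OHSS+nintedanib, 4.85 and 3.37 CPM in OHSS and 6.35 and 4.59 CPM in COH. The OHSS+nintedanib libraries were above the OHSS libraries, and COH overlapped both. Its log2 fold change was 0.50 (SE 0.314, 95% interval -0.28 to 1.29, edgeR adjusted p = 0.749) in OHSS+nintedanib against OHSS, 0.09 (SE 0.312, adjusted p = 0.945) against COH, and -0.41 (SE 0.314, adjusted p = 0.731) in OHSS against COH. The value of OHSS+nintedanib against COH turned to -0.12 without OHSS+nintedanib replicate 1 and to -0.13 without COH replicate 2.

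Lck was more abundant than Zap70 and the CD3 chain genes in every library. Per length it stood over the most abundant CD3 chain gene by a ratio of 10.7 and 9.04 in OHSS+nintedanib, 9.56 and 4.38 in OHSS and 9.70 and 4.30 in COH. The CD3 chains, which form the core of the T cell receptor, averaged 0.24 CPM per kilobase for Cd3g, 0.14 for Cd3e and 0.09 for Cd3d over the 6 libraries. Zap70, the kinase that acts after Lck, averaged 0.65 CPM per kilobase. The 9 T cell markers summed to 6.07 and 5.49 CPM in OHSS+nintedanib, 8.01 and 7.36 in OHSS and 10.1 and 10.5 in COH. Most of that sum came from Cd4 and Zap70, at means of 3.34 and 1.95 CPM over the 6 libraries. The Lck levels of OHSS+nintedanib and COH could not be told apart (log2 fold change 0.09, SE 0.312). Of the 7 T cell markers tested, 6 had a lower mean in OHSS+nintedanib than in OHSS and none passed even an unadjusted p below 0.05 in edgeR or was called by DESeq2. In OHSS+nintedanib against COH all 7 had a lower mean, with a median log2 fold change of -0.88. There 1 of them, Cd3e, passed unadjusted, as did 9.7% of all genes (log2 fold change -1.54, SE 0.470, edgeR unadjusted p = 0.0197, adjusted p = 0.491, DESeq2 adjusted p = 0.330). In single libraries 2 of the 9 were at 0 in OHSS+nintedanib replicate 1 and 1 in COH replicate 2. The part of T cells in the Lck level was not tested, and the cells that hold the transcript cannot be told from these libraries.

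**Figure D4:**
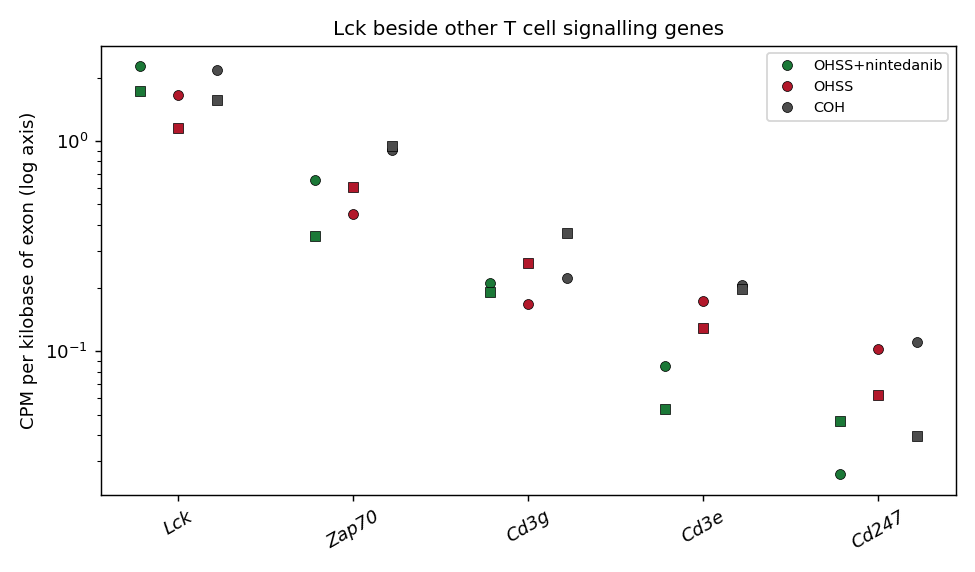
Level of Lck and of 4 other T cell signalling genes in CPM per kilobase of exon on a log axis; circles are replicate 1 and squares replicate 2 of each group. Lck lies between 1.15 and 2.26 CPM per kilobase, above Zap70 and the CD3 chains in every library.

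Within the SRC family, Fyn, a broadly expressed member, had the highest level. It averaged 29.8 CPM per kilobase and made up 42.1 and 44% of the family's summed level in OHSS+nintedanib, 38.4 and 44.2% in OHSS and 41 and 38.6% in COH. Src made up 19.7 and 18.2% in OHSS+nintedanib, 18 and 12.2% in OHSS and 22.2 and 24.7% in COH. Lyn made up 13.2 and 12% in OHSS+nintedanib, 14.4 and 13.8% in OHSS and 12.3% in both COH libraries. Yes1, a close relative of Src, averaged 8.69 CPM per kilobase, and its log2 fold changes were 0.02 in OHSS+nintedanib against OHSS and 0.15 in OHSS against COH (SE 0.114 each). Of the other 6 family members 5 were tested, and edgeR called none in any comparison. Unadjusted, 1 passed p below 0.05 in OHSS+nintedanib against OHSS (7.42% of all genes) and 0 in OHSS+nintedanib against COH (9.7%). In OHSS against COH 1 passed (8.82%). DESeq2 called the same numbers, where it called 1.12, 2.43 and 1.83% of all genes.

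That gene was Frk, a more distant relative of Src found mostly in epithelia. It had 22.7 and 19.9 CPM in OHSS+nintedanib, 31.96 and 34.5 CPM in OHSS and 21.4 and 22.6 CPM in COH. Both OHSS libraries were above the other 4, and each pair of libraries lay close together. On the log2 scale its fold change was -0.64 (SE 0.131, edgeR adjusted p = 0.625, DESeq2 adjusted p = 0.0118) in OHSS+nintedanib against OHSS and 0.60 (SE 0.131, edgeR adjusted p = 0.492, DESeq2 adjusted p = 0.0169) in OHSS against COH. Both values rest on the same OHSS libraries. Csk, the kinase that holds the SRC family in check, had log2 fold changes of 0.04 in OHSS+nintedanib against OHSS and -0.16 in OHSS against COH (SE 0.113 each, edgeR adjusted p = 0.947 and 0.708).

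**Figure D5:**
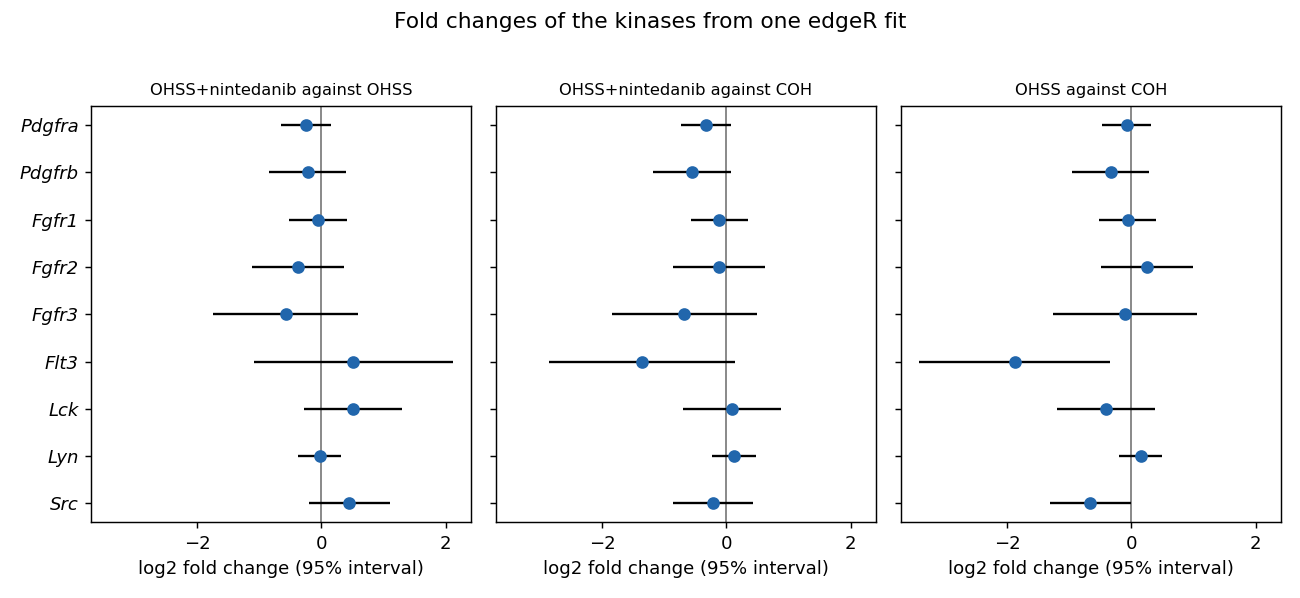
Log2 fold change of each kinase in the 3 comparisons, with horizontal bars for the 95% interval from the fit of all 6 libraries and a vertical line at 0. Only the intervals of Flt3 and Src in OHSS against COH leave out 0, and neither passed the adjusted threshold. Flt3 was kept in the test only for its COH level.

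How the 9 kinases varied over the libraries was compared as the root mean square difference of log2 CPM after each gene was centred on its own mean. The SD of log2 CPM was smallest for Lyn at 0.122, Fgfr1 at 0.173 and Pdgfra at 0.202 and largest for Fgfr3 at 0.535 and Flt3 at 0.880. Fgfr1 and Lyn were the closest pair at 0.176, followed by Pdgfra and Fgfr1 at 0.182, which are also the genes that varied least. Lck and Src, both with lower means in OHSS, were 0.237 apart. Pdgfra and Pdgfrb, whose products form heterodimers, were 0.316 apart, farther than Pdgfra was from Lyn at 0.190.

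Among 11492 other genes with a mean of at least 5 CPM, the nearest to Pdgfra were Trak1 at 0.041 and Il13ra1 at 0.051, and the nearest to Pdgfrb were Reep6 at 0.064 and Mgmt at 0.065. For Fgfr1 they were Sf3a2 at 0.044 and Ccdc114 at 0.046, for Fgfr2 C1qa at 0.072 and Gcsh at 0.081, and for Fgfr3 Med11 at 0.152 and Nsg1 at 0.163. Flt3 was nearest to Igdcc4 at 0.243 and Bhmt at 0.274, Lck to Adamts12 at 0.087 and Plk1 at 0.089, Lyn to Ecsit at 0.023 and Zfp770 at 0.027, and Src to Cmc2 at 0.098 and Arhgap25 at 0.100. With 6 libraries such likeness is common for steady genes: 7312 genes lay within 0.25 of Lyn and 6447 within 0.25 of Fgfr1, against 308 for Src, 12 for Fgfr3 and 1 for Flt3.

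The pathway annotation in the authors' deposited table lists KEGG terms for 7 of the 9 kinases and none for Pdgfrb and Fgfr2. Fgfr1, Fgfr3, Pdgfra and Src share Rap1 signalling and the regulation of the actin cytoskeleton there.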

How the data were processed

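Whole ovaries were sequenced as paired reads in 6 libraries. The authors deposited whole-number read counts per Ensembl gene, per the file headers, with no row that lacks a gene. Their read summaries list 38504916 to 47163764 reads per library, and counts come to 72.12 to 74.01% of reads but 144.2 to 148% of pairs, so 2 counts are taken as 1 pair. Per the submitters' processing notes the tools were HISAT2 2.1.0, StringTie 1.3.3b and Trimmomatic 0.36, and the build was mm8. How reads were counted, on which annotation release and with what use of strand is not given in the sources used here. Exon lengths, overlaps and coding sequences came from GENCODE M21 on GRCm38, which matched 99.63% of the gene IDs. Coordinates are of that build, and none were converted.

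Groups and replicate numbers came from the sample titles. filterByExpr (minimum count 10) in edgeR 4.0.16 under R 4.3.3 left 19027 genes, and TMM factors were 0.961 to 1.03. The two-sided quasi-likelihood F test of edgeR was run in 1 fit of the 3 groups with 3 residual and 2.41 prior degrees of freedom, adjusted by Benjamini-Hochberg over all genes tested at 0.05. SEs were derived from the F statistic. With 2 libraries against 2, the smallest p of an exact permutation test is 0.333, so none was run. DESeq2 1.42.0 and limma voom 3.58.1 were alternatives, beside RLE, upper quartile or library-size scaling, no filter or a stricter one at 1 CPM, a replicate block, fits of only 2 groups and each library left out in turn.

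The kinases and 18 lists with 139 genes, all present in the table, were chosen with earlier results of these data known. Named are every kinase, up to 4 genes with the highest mean CPM of the lists described, and the 2 genes nearest to each kinase in centred log2 CPM (prior count 2, mean of at least 5 CPM, no predicted, clone or pseudogene name). Cd3d and Cd247 were shown beside Lck for their role, and Xcr1 and Il17rd beside other genes of their lists, outside this rule. Not all list genes the rule allows are described, and the result of 1 T cell marker is not reported here.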

Additional observations from a re-analysis of the deposited data

How the results depend on the processing

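No kinase passed the adjusted threshold under any alternative, the replicate block included (0 of 9 in each comparison). Of 401 values of the 27 kinase fold changes under alternatives, 378 kept their direction and 23 reversed. Without regard to single libraries, OHSS against COH turned to 0.0061 with voom and 0.019 with the replicate block for Fgfr3, and OHSS+nintedanib against OHSS to 0.018 for Fgfr1 and 0.044 for Lyn with scaling by library size only. With 1 library left out, OHSS+nintedanib against OHSS ran from -0.25 to 0.16 for Fgfr1, -0.73 to 0.077 for Fgfr2, -0.38 to 1.08 for Flt3, -0.16 to 0.097 for Lyn and -0.56 to 0.052 for Pdgfrb. OHSS+nintedanib against COH ran from -0.25 to 0.0062 for Fgfr1, -0.34 to 0.073 for Fgfr2, -1.21 to 0.19 for Fgfr3 and -0.13 to 0.35 for Lck. OHSS against COH ran from -0.28 to 0.14 for Fgfr1, -0.20 to 0.61 for Fgfr2, -0.63 to 0.76 for Fgfr3 and -0.24 to 0.075 for Pdgfra. The median over the kinases ran from -0.28 to 0.097, -0.34 to -0.17 and -0.33 to -0.0054 in these 3 comparisons, and was 0.018 in the first with library size only. Genes called in OHSS+nintedanib against OHSS were 1, but 2 with no filter, 213 with DESeq2, 0 with the replicate block, 0 with only 2 groups, and 0 to 30 with 1 library left out. In OHSS+nintedanib against COH they were 5, but 436 with DESeq2, 2 with voom, 2 with the block, 2 with only 2 groups, and 0 to 53 with 1 library left out; both maxima came without OHSS+nintedanib replicate 1. In OHSS against COH they were 2, but 4 with no filter, 348 with DESeq2, 0 with voom, 1 with the block, 0 with only 2 groups, and 0 to 2 with 1 library left out. The differences between replicates correlated across genes at -0.0023, 0.048 and -0.00072, so over all genes tested the replicate numbers showed no common pattern. Single genes could still follow them. Pdgfra, Fgfr2, Fgfr3, Lck and Lyn were higher in replicate 1 of every group, while Pdgfrb, Fgfr1, Flt3 and Src had no such order. Fgf2 was higher in replicate 2 of every group. The share of all genes with such an order was not determined, so no replicate effect is read from these orders. Flt3 has no value under the stricter filter, and none for OHSS+nintedanib against OHSS in the fit of only these 2 groups. At its counts, depth limits its precision.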
